A study of Drosophila melanogaster with 3 samples.

Results

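Of 4260 peaks that passed the authors' reproducibility threshold for CG3995 (bdwf) in Drosophila embryos, 377 had their summit inside an intron and close to, but not at, a gene start. A summit entered this class when it lay more than 500 bp and at most 2000 bp from the nearest annotated start of any gene, in no annotated exon, and within the span of at least 1 gene. These peaks are called near-start intronic peaks here. The choice used position alone and no signal value. The peaks came from chromatin immunoprecipitation and sequencing (ChIP-seq) of a fly line with a stable transgene for CG3995 fused at its C terminus to green fluorescent protein, precipitated with an antibody to the tag by the sample description, although the antibody label names CG3995. Whole embryos of both sexes were collected over 0 to 24 h, chromatin was sheared to 200 to 800 bp, and 3 biological replicates formed the only group. No second condition and no control precipitation were analysed here, and whether the flies also carried the untagged gene is not given in the labels. In chromatin from whole embryos, strong occupancy in few cells and weak occupancy in many cannot be told apart.

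Promoters are the sequences just around a gene start, where RNA polymerase is loaded, while introns are the transcribed stretches that splicing removes. In flies, introns near a start, and first introns above all, often hold enhancers, which raise transcription from a distance, and alternative starts of the same gene. The DNA replication-related element (DRE) and Motif 1 are short promoter sequences of broadly active fly genes, and the GAGA sequence is bound by GAGA factor at many developmentally regulated ones.

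The sequences of 7 of the strongest near-start intronic peaks are printed first, because a short run recurs in them. Each line gives the 101 bases centred on the summit, plus strand of dm6, from the RefSeq copy of the assembly. Capitals mark GTCAC or its reverse complement, a run chosen after these sequences were seen.
CG17672, chr3L:13032207-13032307: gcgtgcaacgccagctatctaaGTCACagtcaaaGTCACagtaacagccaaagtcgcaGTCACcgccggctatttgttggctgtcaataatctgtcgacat
lab, chr3R:6664567-6664667: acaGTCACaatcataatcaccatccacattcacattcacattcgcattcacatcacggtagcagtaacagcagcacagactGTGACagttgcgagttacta
CG5381, chr2L:10321175-10321275: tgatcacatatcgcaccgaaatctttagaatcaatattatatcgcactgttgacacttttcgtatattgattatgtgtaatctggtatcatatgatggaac
Snx3, chr3R:12628724-12628824: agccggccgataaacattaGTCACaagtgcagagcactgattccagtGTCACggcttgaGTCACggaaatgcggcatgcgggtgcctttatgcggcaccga
ry, chr3R:13033345-13033445: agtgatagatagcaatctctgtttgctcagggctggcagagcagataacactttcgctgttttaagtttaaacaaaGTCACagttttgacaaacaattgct
ush, chr2L:481003-481103: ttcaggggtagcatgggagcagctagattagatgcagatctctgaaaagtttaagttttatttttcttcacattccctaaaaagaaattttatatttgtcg
ago, chr3L:4252962-4253062: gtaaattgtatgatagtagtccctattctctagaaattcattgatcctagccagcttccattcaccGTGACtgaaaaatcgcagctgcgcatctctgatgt
GTCAC was found in 5 of these 7 windows, 3 times each at CG17672 and Snx3. The CG5381 and ush windows held no copy.

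A single near-start intronic peak held the complete DRE, written TATCGATA, and is shown because this element is common at the promoter peaks of the same list. It lay in an intron of Stt3A, which encodes a subunit of the enzyme that attaches sugar chains to proteins, 632 bp from a start of the same gene, with a signal of 295.7. Capitals mark the DRE in the 101 bases around its summit, plus strand of dm6.
Stt3A, chrX:21053255-21053355: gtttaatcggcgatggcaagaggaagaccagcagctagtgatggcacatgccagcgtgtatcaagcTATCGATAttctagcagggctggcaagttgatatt

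The class held 8.85% of the thresholded peaks (Wilson 95% interval 8.03 to 9.74%), and the same kind of sequence makes up 8.55% of bases on the 6 arms used. The 4260 strongest regions of the replicates gave 8.76%, 9.27% and 9.39% (mean 9.14% ± 0.337, SD, n = 3), each above the share of bases. The mean difference from the share of bases was 0.593 percentage points (exact sign-flip permutation test over 3 replicates, two-sided, p = 0.25, the smallest that 3 replicates allow). The direction was not the same throughout: with each replicate list cut to its top 2130 regions, the mean share was 6.85%, below the share of bases, and between 1000 and 2000 bp it was 4.54%, against 5.25% of bases. Promoters held 3199 peaks on 13.6% of bases and introns farther from a start (deep introns) held 348 on 31.0%. Of the near-start intronic peaks, 53 lay on arm 2L, 65 on 2R, 75 on 3L, 99 on 3R, 2 on chromosome 4 and 83 on X. The X share was 22.0%, against 19.2% of near-start intronic bases, and the replicates gave 21.8% ± 0.129 (SD, n = 3).

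Distances inside the class leaned towards its inner edge. The median summit was 961 bp from the nearest start (quartiles 715 and 1349 bp). Between 500 and 1000 bp lay 197 peaks (52.3%, 47.2 to 57.2%), where 38.6% of near-start intronic bases lie, and in replicates 50.4% ± 1.87 (SD, n = 3) of summits lay there (mean difference from bases 11.8 points, exact permutation p = 0.25, higher in 3 of 3 replicates). A further 113 lay between 1000 and 1500 bp and 67 between 1500 and 2000 bp. At the inner limit, the nearest peaks inside were at Dif (509 bp, signal 248), NKAIN (511 bp, 160) and CG42671 (513 bp, 217). The nearest intronic peaks outside it were at His4r (499 bp, 211), CG31612 (498 bp, 464) and Larp4B (491 bp, 293). At the outer limit, CG43867 (1978 bp, 141), Klp98A (1967 bp, 178) and Kdm2 (1954 bp, 153) were inside, and an NFAT peak (2005 bp, 144), hiw (2009 bp, 142) and lncRNA:CR44320 (2013 bp, 284) were outside. Signals on either side of both limits overlapped.

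**Figure D1:**
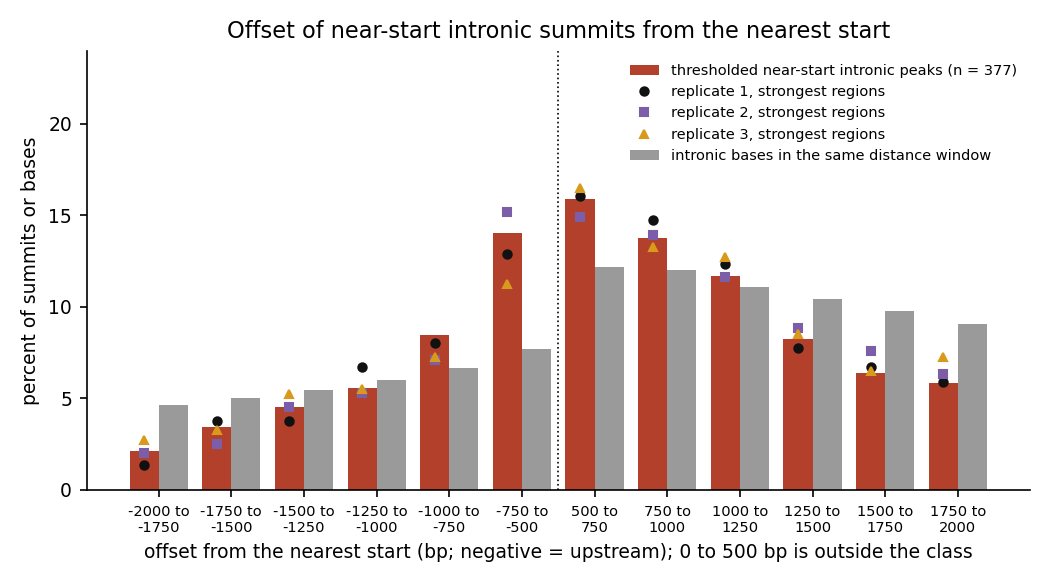
Percent of near-start intronic summits (red bars, thresholded list; symbols, strongest regions of each replicate) and of intronic bases in the same distance window (grey) by offset from the nearest start in bins of 250 bp, negative upstream. The bin from 750 to 500 bp upstream held 14.1% of summits and 7.69% of bases, and the outermost bins on both sides held fewer summits than bases.

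Most of these peaks belonged to the first intron of their host. The host is the gene whose span holds the summit, protein-coding genes before others and longer spans before shorter, and introns are numbered from the 5' end of the host's longest transcript that has an intron there. First introns held 228 of the 377 summits (60.5%, 55.5 to 65.3%), against 47.3% of near-start intronic bases. Second introns held 106 (28.1%, against 25.4% of bases), intron 3 of the host 26 (6.90%, against 11.6%) and later introns 17 (4.51%, against 15.7%). The latest were in intron 14 of Msp300, a giant nuclear envelope protein of muscle, intron 13 of hiw and intron 12 of kis. Strongest regions of the replicates gave 62.2%, 62.0% and 60.5% in first introns (mean 61.6% ± 0.935, SD, n = 3; mean difference from bases 14.2 points, exact permutation p = 0.25, 3 of 3 replicates higher). Counting a summit as first when any transcript of the host has its first intron there gave 80.9%, against 62.8% of bases, and requiring it of every transcript with an intron there gave 55.7%, against 43.0%. First-intron peaks had a median signal of 214 and 68.4% of them were found in all 3 replicates, against 177 and 58.4% for later introns, a difference that was not tested.

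The nearest start was usually one of the host's own. It belonged to the host for 300 peaks (79.6%, 75.2 to 83.3%), against 67.4% of bases, and the replicates gave 79.5% ± 1.75 (SD, n = 3; exact permutation p = 0.25, 3 of 3 higher). Of all summits, 54.4% lay downstream of a start of the host, against 51.5% of bases, and 95 lay upstream of an internal start of the host (25.2%, 21.1 to 29.8%, against 15.9% of bases). For the other 77 peaks the nearest start was that of a gene nested in or overlapping the host, protein-coding for 52 and noncoding for 25. The share downstream of whichever start was nearest, 61.8%, was close to that of bases (64.6%), and the replicates differed from bases by -0.707 points (exact permutation p = 0.50, higher in 1 of 3 replicates).

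**Figure D2:**
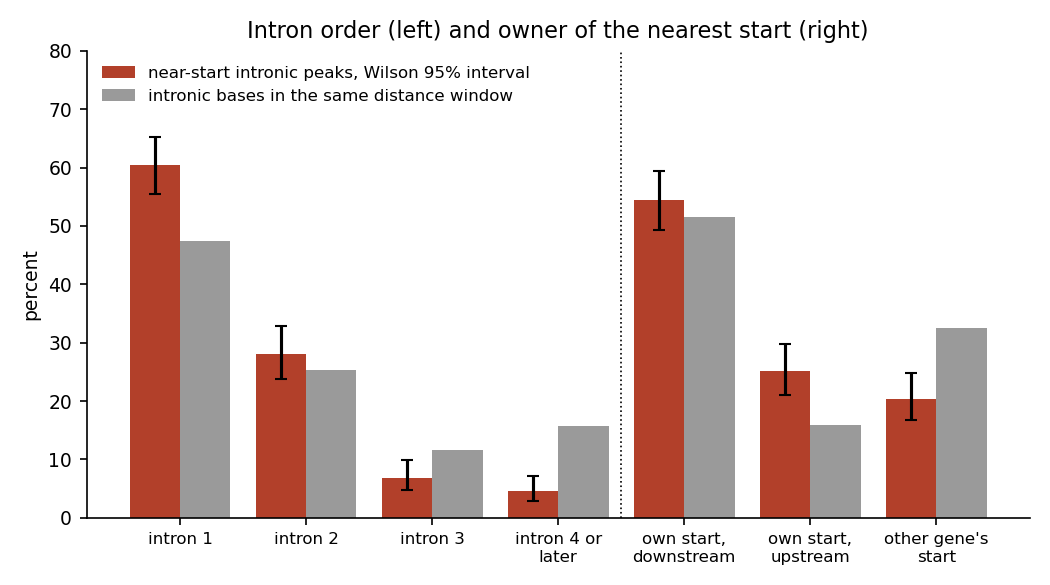
Percent of near-start intronic peaks (red, with Wilson 95% intervals for counting error) and of intronic bases in the same distance window (grey) by intron number, left of the dotted line, and by the gene that owns the nearest start, right of it. Peaks stand above bases for first introns (60.5% against 47.3%) and for summits upstream of an internal start of the host (25.2% against 15.9%).

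For most peaks the start they were near had no peak of its own. A thresholded summit lay within 500 bp of the nearest start for 103 of the 377 (27.3%, 23.1 to 32.0%), and of the nearest start of deep intronic peaks for 21.6%. Any start of the host had one for 204 peaks (54.1%), and 167 (44.3%) had neither. No matching share over other genes was computed, and a host with more starts has more chances of a peak at one. These counts are therefore descriptions only. The interval overlapped another thresholded interval for 34 peaks (9.02%, against 13.1% of all thresholded peaks) and a promoter peak for 6 of them. The median distance to the next thresholded summit was 1850 bp (quartiles 919 and 6184 bp). Intervals were mostly at the width of 416 bp that is most common in the list, and 9 were wider than 500 bp (2.39%, against 7.28% of all peaks).

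Near-start intronic peaks were weaker than promoter peaks and stronger than deep intronic ones. Signal, the authors' own enrichment value in the thresholded list, had a median of 199 in near-start introns (quartiles 150 and 287, range 126.8 to 6251), 243 at promoters and 177 in deep introns. Of the 377, 11 had a signal over 1000 (2.92%, against 9.74% of all peaks), and 6 were among the 250 strongest peaks. In replicate lists, ranked by signal with 1 as the strongest, their median ranks were 2477, 2480 and 2545 (mean 2501 ± 38.4, SD, n = 3). Promoter peaks had median ranks of 1826, 1840 and 1871 (1846 ± 23.0), a mean difference of 655 ± 17.3 (exact sign-flip permutation test, two-sided, p = 0.25, lower-ranked in 3 of 3 replicates). Deep intronic peaks had 2892, 2809 and 2841, so near-start intronic peaks stood a mean of 346 ± 61.2 ranks ahead of them, again in 3 of 3 replicates (exact permutation p = 0.25).

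**Figure D3:**
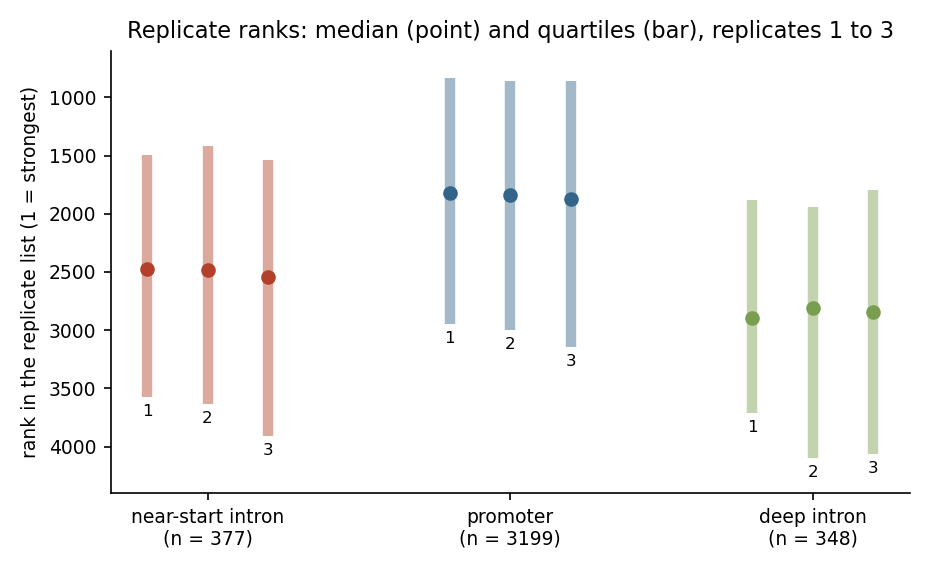
Median (point) and quartiles (bar) of the rank by signal in the lists of replicates 1, 2 and 3 for near-start intronic, promoter and deep intronic peaks, with the strongest rank at the top. In each replicate the median of near-start intronic peaks lies between those of the other classes, and the bars of all 3 classes overlap.

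A peak was counted as found in a replicate when its interval overlapped, by at least 1 bp, one of that replicate's 4260 strongest regions. By this count 336 near-start intronic peaks were found in replicate 1 (89.1%, against 91.5% of all peaks), 327 in replicate 2 (86.7%, against 89.0%) and 306 in replicate 3 (81.2%, against 84.3%). All 3 replicates held 243 of them (64.5%, 59.5 to 69.1%), against 72.9% of all thresholded peaks, 76.8% of promoter peaks and 55.2% of deep intronic peaks. Another 108 were found in 2 replicates, 24 in 1 and 2 in none. By strength, all 20 of the strongest were found in every replicate, and 12 of the 100 weakest. The thresholded peaks are also the strongest regions of a list called on the same 3 replicates pooled, so being found is not independent of being listed. Within the whole replicate lists, which include background, 375 of the 377 had an overlapping region in each replicate. CG42336 and Mur2B, with signals of 136 and 135, had none in replicate 3.

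The gap between the best and the worst replicate rank had a median of 995 (quartiles 442 and 2183). The 5 largest gaps belonged to peaks in pnt (ranks 2591, 6346 and 18126), neb (4128, 1974 and 13503), Ctns (4001, 3948 and 13769), arg (2636, 2431 and 11957) and fru (2474, 11173 and 1862), all with signals of 182 or less. Replicate 3 gave the worst rank in 4 of these 5. As a description across the 377 or 375 peaks that had regions in both lists, Spearman's rho of the ranks was 0.802 between replicates 1 and 2, 0.722 between 1 and 3 and 0.687 between 2 and 3. Promoter peaks gave 0.899, 0.861 and 0.847 and deep intronic peaks 0.713, 0.598 and 0.593 for the same pairs, and the values depend on the range of strengths in each class.

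The strongest near-start intronic peak lay in an intron of Orai (FBgn0041585), which encodes the pore subunit of the store-operated calcium channel, on 2R from 17851384 to 17852560. Its summit at 17851670 stood 808 bp downstream of an Orai start and its signal of 6251 placed it 125th in the thresholded list and 126th, 126th and 124th in replicates 1, 2 and 3. Its broad interval was used again by 2 weaker summits, with signals of 757 and 335, so 3 of the 377 rows came from this one region and share replicate ranks. The second strongest lay in the first intron of CG17672 (FBgn0083978), with a signal of 3971 and replicate ranks of 198, 207 and 153. The nearest start to that summit, 813 bp away, was that of lncRNA:CR45157.

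The Hox gene lab (labial, FBgn0002522), which specifies the embryonic head, held the third, on 3R from 6664354 to 6664838. The summit lay in the first intron, 14144 bp long, and 1163 bp upstream of an internal lab start, with a signal of 2912 and ranks of 229, 243 and 178. A different start of lab had a thresholded peak of its own, and the start nearest to the intronic summit had none. CG5381 followed (2657, ranks 217, 228 and 259), then Snx3, a sorting nexin that recycles the Wnt carrier Wntless (2585, ranks 234, 241 and 225). The peaks in Orai, CG17672, lab, CG5381 and Snx3 all stood between rank 124 and rank 259 in every replicate list.

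Further down were ry, the xanthine dehydrogenase gene of the rosy eye colour locus (1705, ranks 272, 314 and 333), and ush, a cofactor of GATA factors (1592, ranks 290, 300 and 335). The ush summit lay in a first intron of 49060 bp, and its nearest start was that of the nested zinc finger gene cbt, 1365 bp away, which had a thresholded summit within 500 bp. The F-box gene ago, which marks cyclin E for degradation, held 2 summits in 1 interval (1224 and 1174), which share ranks of 385, 378 and 255. CG32772 (1054) ended the list of peaks over 1000.

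The other 9 of the 20 strongest had signals from 788 to 976. They lay in Lk6, a kinase of the translation factor eIF4E (976), Brf, a subunit of the RNA polymerase III factor TFIIIB whose nearest start was that of lute (952), CG9663 (945), and Trl, which encodes GAGA factor (919). The rest were in not, a ubiquitin protease of the SAGA coactivator (915), HmgD, an HMG-box chromatin protein gene that overlaps HmgZ (879), lncRNA:CR43836 near the start of Nost (840), CG9837 (792) and Etl1, a SNF2-type helicase (788). Of all 20, 14 lay in a first intron and 8 had a nearest start with a peak of its own.

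**Figure D4:**
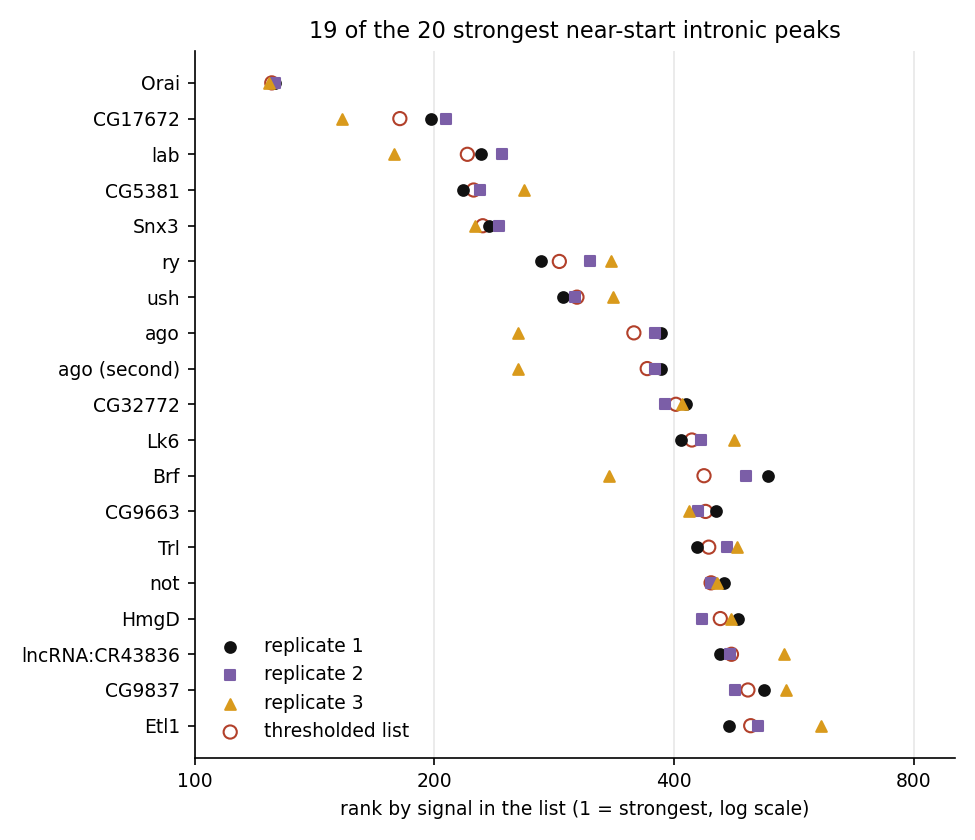
Rank by signal (log axis, 1 = strongest) of 19 of the 20 strongest near-start intronic peaks, named by host, in replicates 1 to 3 and in the thresholded list. All 19 stand between rank 124 and rank 612 in every replicate, Orai is within 2 ranks in all 3, and the 2 ago summits share 1 replicate region.

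The 377 peaks fell in 314 host genes, 311 of them protein-coding, which is 4.19% of the 7425 protein-coding genes with near-start intronic bases. A single peak was hosted by 265 genes, 37 hosted 2 and 12 hosted 3 or more. The 311 protein-coding hosts, each counted once, had a median length of 13706 bp (quartiles 6487 and 28142 bp) and a median of 2 starts (quartiles 1 and 3), against 4066 bp and 1 start over all protein-coding genes with such bases. A longer gene with more starts offers more near-start intron, and hosting was not adjusted for it.

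Tlk, the Tousled-like kinase of chromatin assembly, and pnt, the ETS transcription factor downstream of Ras signalling, hosted 4 each. The Tlk peaks had signals of 413, 198, 180 and 148 and all lay near Tlk starts. Those of pnt were near the listing limit (147, 141, 129 and 128) and all were nearest to lncRNA:CR46090, which is nested in intron 3 of pnt. The pnt summits of 141 and 128 share replicate ranks of 3951, 3272 and 4059. Besides Orai, 3 peaks each lay in Lk6 (976, 307 and 191), Trl (919, 319 and 180), Moe, the actin-membrane linker moesin (586, 384 and 204), and NFAT (465, 257 and 182). The Moe summits of 586 and 384 lie in 1 interval and share replicate ranks of 670, 709 and 703. CHES-1-like, a forkhead factor gene (425, 381 and 353), E2f1, the cell cycle activator (422, 156 and 153), CG17230 (335, 247 and 204), CG1677 (279, 150 and 145) and shn, a zinc finger effector of Dpp signalling (254, 182 and 160), also held 3. All 3 peaks in CG17230 were nearest to starts of PGRP-LB, an immune amidase, and those in CG1677 to starts of Dok, brk and CBP. The E2f1 peak of 422 ranked 1068, 816 and 1221, while the weaker ones ranked 2695, 10738 and 3224, and 2995, 5791 and 5161.

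Hosts were also set against 8 lists of genes. The lists are not complete. The chromatin list, for example, lacks the host genes HmgD (879) and not (915), and the metabolism list lacks ry (1705). Shares and strongest hosts below refer to the listed genes only. Among chromatin and insulator genes 9 of 45 with near-start intronic bases were hosts (20%, against 4.19% of all such genes), with 12 peaks of median signal 187. The strongest of the listed hosts besides Trl were Sin3A, a histone deacetylase corepressor (305, ranks 1558, 1369 and 1731), ph-p, a Polycomb group protein (267), and jumu, a forkhead protein (257). Cytoskeleton genes had 10 hosts of 61 (16.4%), among them Moe, tsr, which encodes cofilin (394), Rho1 (380) and Msp300 (360). Signal transduction genes had 12 of 79 (15.2%), led by Ras85D (647, ranks 593, 775 and 560), Btk (365), Stat92E, the transcription factor of JAK/STAT signalling (364), and the insulin receptor gene InR (325).

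The nuclear receptor list had 3 hosts of 24 (12.5%), the ecdysone receptor gene EcR (577, ranks 718, 613 and 921), Eip75B (171) and Hr4 (156). Developmental transcription factor genes had 7 of 78 (8.97%), led by lab, ush, psq (267) and Dif (248). RNA-binding regulators had 3 of 37 (8.11%), brat (406), ps (240) and Sxl (158), and the listed metabolic and transport genes 3 of 42 (7.14%), AcCoAS (680), Acsl (239) and sut1 (157). Cell adhesion and axon guidance genes had 1 host of 58 (1.72%), kirre (200), a receptor of myoblast fusion. The median near-start intronic length per gene was 606 bp in the chromatin list, 1515 bp in the cytoskeleton, signalling and metabolism lists, 2879 bp in the adhesion list and 3283 to 3535 bp in the transcription factor, RNA-binding and nuclear receptor lists, against 505 bp over all genes. The shares of hosts were not adjusted for this length. The pnt peaks count in 2 of the lists, and none of these differences was tested.

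The promoter elements were rare at near-start intronic summits. The DRE core ATCGAT was within 50 bp of 11 summits (2.92%, against 20.1% of promoter peaks and 16.0% of all peaks), which is near the 2.65% of flanking windows centred 300 bp away. Strongest regions of the replicates gave 3.00% ± 0.0446 in near-start introns and 19.3% ± 0.805 at promoters (SD, n = 3; mean difference -16.3 points, exact sign-flip permutation p = 0.25, lower in 3 of 3). The full DRE was at 1 summit (0.265%, against 7.02% of all peaks). The Motif 1 core GGTCAC was at 16 summits (4.24%, against 10.4% of promoter peaks, 9.23% of all peaks and 2.25% of flanks), and the complete Motif 1, written GGTCACAC, at none (3.40% of all peaks). In replicates the Motif 1 core stood at 3.77% ± 0.454 in near-start introns and 10.2% ± 0.436 at promoters (mean difference -6.42 points, exact permutation p = 0.25, lower in 3 of 3), and it was 2.01 points above flanks, also in 3 of 3. No summit had both cores, and only 27 of the 377 near-start intronic summits had either. Among the 20 strongest peaks 18 had neither, so lacking both cores was not particular to the strongest.

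The shorter run GTCAC, which is part of the Motif 1 core, was more frequent. It was at 85 of the 377 summits (22.5%), against 10.2% of their flanks, 9.23% of 11270 windows spread over all near-start introns, 26.1% of promoter peaks and 26.1% of all peaks. Deep intronic peaks had it at 24.7% (replicates 25.2% ± 1.19, SD, n = 3) and intergenic peaks at 26.7%. GTCAC was thus not particular to near-start introns, whose share was the lowest of these peak classes. Of the 85 near-start intronic summits, 69 held it without the Motif 1 core. In replicates it stood at 21.7%, 23.8% and 19.0% (mean 21.5% ± 2.41), against 10.7%, 11.0% and 8.62% of flanks (10.1% ± 1.30, SD, n = 3), so the ranges did not overlap. It occurred more than once at 17 summits (4.51%), against 0.398% of flanks, 0.532% of near-start intronic windows and 5.42% of all peaks. Among the 20 strongest peaks 13 held it and 6 held it repeatedly. Beyond these, CG9411 (signal 764) held 5 copies, and Ras85D and dpy held 3 each. By strength it was at 30.5% of the strongest 95 of the 377 and 17.0%, 24.5% and 18.1% of the next sets of 94. Since GTCAC was picked after the printed sequences were seen, these shares carry no test.

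**Figure D5:**
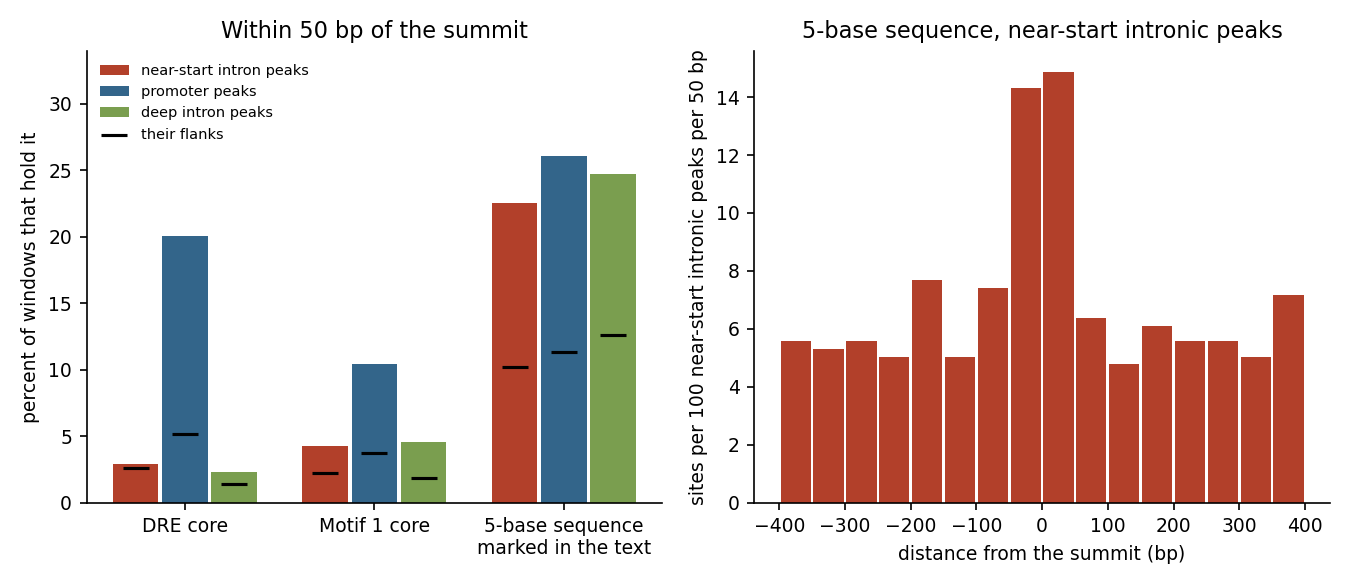
Left, percent of windows of 50 bp to each side of the summit that hold the DRE core, the Motif 1 core or GTCAC, the run in capitals above, at near-start intronic, promoter and deep intronic peaks, with the flanks of each class as black lines. Right, GTCAC sites per 100 near-start intronic peaks in bins of 50 bp around the summit, which reach 14.3 and 14.9 in the 2 central bins and lie between 4.77 and 7.69 elsewhere.

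All 2080 sequences of 6 bases, each taken with its reverse complement, were also counted. Among the 590 present at 5% or more of the 377 summits, the largest ratios to flanks belonged to GATCAC (5.57%, against 1.06%), TCACGA (5.57%, against 1.19%), ACACTG (7.16%, against 1.86%) and CGTGAC (7.16%, against 1.86%). In the same order, promoter peaks had 3.31%, 4.28%, 10.9% and 5.63%, and deep intronic peaks 3.74%, 4.60%, 4.60% and 8.33%. ACACTG was thus more frequent at promoter peaks, and CGTGAC at deep intronic peaks, than in near-start introns. Next by ratio was AGTCAC, at 12.2% of summits against 3.18% of flanks, 9.19% of promoter peaks and 10.7% of all peaks. Its share was higher at deep intronic peaks (15.5%) and intergenic peaks (17.1%), and replicates gave 11.4% ± 1.22 in near-start introns, against 15.3% ± 0.671 in deep introns and 3.50% ± 0.269 of flanks (SD, n = 3). The related AATCAC was at 15.6% of summits, against 4.77% of flanks, 12.9% of deep intronic peaks, 10.7% of all peaks and 5.12% of near-start intronic windows. In replicates it stood at 13.2% ± 1.81, against 4.28% ± 0.153 of flanks and 9.34% ± 0.255 at promoters (SD, n = 3). Deep intronic regions of replicates 1, 2 and 3 had 12.7%, 12.7% and 10.6%. All these runs of 6 bases were picked after the summit sequences were seen, so their shares are descriptions with no test.

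The remaining sequences searched were on both strands within the same windows. AP-1 (TGANTCA), the site of Fos and Jun, was at 18 near-start intronic summits (4.77%, 3.04 to 7.42%), against 2.06% of promoter peaks, 2.65% of all peaks, 2.39% of flanks and 2.71% of near-start intronic windows. Replicates gave 5.48% ± 0.367, against 2.37% ± 0.216 of promoter peaks and 2.48% ± 0.428 of flanks (SD, n = 3; differences of 3.12 and 3.00 points, each with exact permutation p = 0.25 and higher in 3 of 3), while deep intronic peaks had 5.05% ± 0.602. AP-1 can overlap GTCAC, and 9 of the 18 summits held both. The GAGA sequence (GAGAGAG) was at 3 summits (0.796%, against 0.869% of all peaks, 5.44% of flanks and 1.55% of near-start intronic windows). In the same list it was at 0.813% of promoter peaks and 1.15% of deep intronic peaks, both above near-start introns. Replicates gave 1.46% ± 0.175, against 4.75% ± 0.171 of flanks, 0.985% ± 0.152 of promoter peaks and 0.874% ± 0.303 of deep intronic peaks (SD, n = 3). There GAGA was below flanks and above both other classes in 3 of 3 (exact permutation p = 0.25 each), so the order of the classes differed between the lists. A CA repeat (CACACACA) was at 5 summits (1.33%, against 1.10% of all peaks, 3.32% of flanks and 2.43% of near-start intronic windows). Replicates gave 1.62% ± 0.367, against 4.69% ± 0.584 of flanks, 1.05% ± 0.0344 of promoter peaks and 1.86% ± 0.537 of deep intronic peaks (SD, n = 3). For both sequences the flanks were higher than near-start introns at large.

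A homeodomain core (TAATTA) was at 34 summits (9.02%, against 7.61% of all peaks and 6.10% of flanks). Near-start intronic windows had 8.10% and deep intronic peaks 10.1%. Replicates gave 7.52% ± 0.732, against 6.71% ± 0.590 of flanks (SD, n = 3). The E-box (CACCTG) was at 12 (3.18%, against 2.89% of all peaks), Grainyhead (AACCNGTT) at 6 (1.59%, against 1.31%), the GATA sequence, written AGATAAG, was found in 5 (1.33%, against 1.22%) and the CTCF core (AGNNGGCGC) at 3 (0.796%, against 1.27%). Neither Zelda (CAGGTAG, 0.399% of all peaks) nor the Pho core (GCCATTTT, 0.798%) was at any of the 377 summits, and 0 of 377 allows a share of up to 1.01% (Wilson 95% limit).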

How the data were processed

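ChIP-seq peak lists of 3 biological replicates were used. Per the file notes, the authors called peaks and background on each replicate and on all 3 pooled, with a control file, and kept regions by the irreproducible discovery rate on build dm6. The aligner, caller and threshold are not given in the sources used here. The deposited signal value has a scale of its own in each list, so lists were compared by rank alone. Read depth is unknown. Replicate lists held 30000, 28051 and 24171 regions.

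Starts, exons and spans came from Ensembl release 115 (BDGP 6.54, 23584 starts) while bases were read from RefSeq's FASTA, whose X has the dm6 length of 23542271 bp. Coordinates are 1-based. For shares of bases, every 101st base was classified. Of 483 gene symbols in the lists 4 were not found. Wilson 95% intervals cover counting error only, and replicate spread is the SD over the 3 lists. The sign-flip permutation test is two-sided and cannot fall below 0.25. The labels call the replicates biological but do not describe their collections.

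The class, lists and searched sequences were chosen with earlier results of these data known. One peak among the strongest is not reported here by name. Genes named were the hosts of the 20 strongest peaks, hosts of 3 or more, up to 4 hosts per list, the 5 largest rank gaps, peaks with no region in a replicate, 3 peaks on each side of each limit, and, for sequences, the strongest peaks and those with the DRE or Motif 1. Genes outside this rule (kis, dpy and CG9411, and Ras85D for its sequence) were chosen after their values were seen. The functions, 18 checks in all, were tested on toy data with Python 3.11.15, numpy 2.4.6, pandas 2.3.3 and scipy 1.17.1.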

Additional observations from a re-analysis of the deposited data

How the results depend on the processing

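Of 107 alternatives over 9 results, 91 were counted as unchanged, 14 moved and 2 turned round. For class size, the count considered first the direction against the share of bases and then the value, within a factor of 1.5. For the share found in all replicates and the share whose nearest start had its own peak, the count considered the value. For the other results it considered the direction alone, so their values could shift. The median signal, for example, was 328 among the stronger 2130 peaks, against 199 in the full list. The class held more than its share of bases in the full list (377 peaks) but less among the stronger 2130 peaks (155) and between 1000 and 2000 bp (180), while 197 lay between 500 and 1000 bp. The share found in all replicates (64.5%) was 98.7% among the stronger 2130, 69.2% with gene starts only, 57.6% when a replicate summit had to lie within 100 bp, 94.4% in 8520 strongest regions per replicate and 99.5% in whole lists, and 70.8 to 78.0% without 1 replicate. The share whose nearest start had its own peak (27.3%) was 16.1% among the stronger 2130, 38.7% with gene starts only, 18.8% within 200 bp and 21.7 to 24.1% in peaks found without 1 replicate. Some of these moves follow from the procedure. Fewer replicates, longer replicate lists or a choice of strong peaks make finding easier by construction. A limit of 200 bp can only lower the share whose nearest start had its own peak. Shorter thresholded lists leave fewer summits that can mark a start. Beyond this, the cause of the moves was not tested. With gene starts only the class again had 377 peaks, of which 248 were shared. The first-intron share ran from 55.7 to 80.9%, and the DRE core stayed below promoter peaks, in every alternative run. Leaving out peaks that overlap others, an alternative added after seeing the data, left 343 peaks, and no result was counted as moved. The replicate lists were not cut in it. The direction of the class share and of the first-intron, own-start, DRE core and Motif 1 core shares was therefore fixed in advance. The runs without 1 replicate did not cut the replicate lists either, and all 3 replicates shared the direction of each of these results. Those directions were thus fixed there too, so their being unchanged in these runs carries no support. Among the 343 peaks 60.6% lay in first introns and 3.21% held the DRE core, against 20.7% of promoter peaks. No paired analysis was possible because there was 1 group, so replicate numbers link no samples across groups (differences between peak classes were taken within each replicate). Unknown depth limits any statement on absent peaks.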
